A study of Homo sapiens with 2 samples.

Results

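The S100 genes encode small calcium-binding proteins, and 10 of them are described here in K562 cells that overexpress PML4. The genes are S100A4, S100A6, S100A8, S100A9, S100A10, S100A11, S100A13, S100A16, S100B and S100P. They were chosen by family membership and by earlier readings of their signals on these same arrays, with the aim of setting members that differ upward beside members that differ downward. The differences between the arrays are therefore a description and were not tested. All 10 genes have probe sets of their own on the array, 15 probe sets among 54613 human ones, and 6 of the 10 genes were measured, among 12541 measured genes in all.

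The series holds 2 arrays of total RNA from K562, a human line grown from a chronic myeloid leukaemia that carries the BCR-ABL fusion. The PML4 cells received a retrovirus that overexpresses PML4, an isoform of the promyelocytic leukaemia protein that builds PML nuclear bodies. The pMSCV cells received the empty control vector. Both kinds of cells were kept under G418 selection for 3 weeks in medium with 10% FBS, per the labels, and no other allele or agent is named there. Each group is 1 array, so no value has a replicate, no p-value is given, and each difference is that between these arrays of 1 transduced line. In such bulk RNA, fewer expressing cells and less RNA per cell cannot be told apart.

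S100 proteins form dimers in which each subunit carries a pair of EF-hand loops. Calcium binding opens a surface that holds target proteins, among them annexins, myosins and cytoskeletal adaptors. Several members are also released from cells and bind receptors such as AGER, the receptor for advanced glycation end products, and TLR4. S100A8 and S100A9 are abundant in neutrophils and monocytes, S100B in glia and melanocytes, and S100P was first isolated from placenta. Most S100A genes lie in a cluster on chromosome 1.

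Values are MAS5 signals, a linear intensity that summarises the probes of a probe set. A signal above 72.4, the median of the human probe sets over both arrays and used here as a floor, counted as measured. Lower signals were set to the floor, log2 was taken, and each difference is log2 PML4 minus log2 pMSCV. A gene was called when it differed by at least 2-fold. For scale, 19460 pairs of probe sets that read the same gene had log2 differences with a median gap of 0.30, a spread that leaves out the errors of arrays and of cultures. Each probe set has its own response, so signals of different genes show no order of transcript levels. Mean signal was used only to pick the probe set of a gene and some of the list genes given as examples.

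The bases before the annotated start sites are shown first for the 3 genes that were called and for S100A11, the neighbour of S100A10 with nearly the same signal on both arrays. Each run holds 250 bases ending at the base before the RefSeq start site of GRCh38.p14, read 5′ to 3′ on the gene's strand. S100A4 is at chr1:153545807-153546056 on the minus strand, S100A10 at chr1:151993860-151994109 on the minus strand, S100P at chr4:6693628-6693877 on the plus strand and S100A11 at chr1:152037005-152037254 on the minus strand. Capitals mark matches, on either strand, to the letters of 5 promoter motifs: the TATA box TATAAA, the CCAAT box CCAAT, the GC box GGGCGG, the AP-1 motif TGANTCA and the GATA motif AGATAA. No match of a motif overlaps a match of another.
S100A4: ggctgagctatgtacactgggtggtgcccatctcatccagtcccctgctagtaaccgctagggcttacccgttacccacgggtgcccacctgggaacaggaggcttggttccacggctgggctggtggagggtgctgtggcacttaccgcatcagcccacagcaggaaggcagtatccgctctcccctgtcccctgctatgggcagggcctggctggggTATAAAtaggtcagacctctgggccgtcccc
S100A10: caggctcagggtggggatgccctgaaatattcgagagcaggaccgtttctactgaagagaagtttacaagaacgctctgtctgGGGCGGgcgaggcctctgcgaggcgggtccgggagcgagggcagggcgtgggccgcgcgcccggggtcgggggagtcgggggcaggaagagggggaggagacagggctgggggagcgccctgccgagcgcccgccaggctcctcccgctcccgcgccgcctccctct
S100P: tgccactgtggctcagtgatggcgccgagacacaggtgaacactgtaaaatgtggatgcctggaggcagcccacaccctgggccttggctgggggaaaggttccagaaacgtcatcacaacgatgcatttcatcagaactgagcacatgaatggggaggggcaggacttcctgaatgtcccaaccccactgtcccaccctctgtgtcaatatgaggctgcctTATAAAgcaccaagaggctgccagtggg
S100A11: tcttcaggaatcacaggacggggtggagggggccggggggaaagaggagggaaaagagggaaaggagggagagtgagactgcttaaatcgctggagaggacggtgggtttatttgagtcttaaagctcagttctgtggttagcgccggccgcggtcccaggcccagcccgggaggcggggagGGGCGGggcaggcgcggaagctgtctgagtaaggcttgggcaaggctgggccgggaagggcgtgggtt

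S100A4 and S100P, which differ in opposite directions below, both hold TATAAA a short way before the start site. The match covers positions -31 to -26 in S100A4 and -28 to -23 in S100P, counted back from -1 at the base before the start. S100A10 and S100A11 hold no TATAAA and 1 GGGCGG each, at -167 to -162 and at -68 to -63. GC content was 71.2% in S100A10, 63.6% in S100A11, 62.8% in S100A4 and 55.6% in S100P, and the median over 35116 windows of that length was 58%. Of those windows, 10.7% hold TATAAA, 42.6% GGGCGG, 32.01% CCAAT, 9.17% AGATAA and 6.57% TGANTCA. None of the 14 windows of the 9 members with a promoter window holds the AP-1 or GATA letters. TATAAA also stands at -29 to -24 in a window of S100A8, S100A9 and S100A13. These are matches of letters and not sites, and a motif missing from a window says only that its letters are not there.

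S100A4 and S100A10 were each more than 5-fold higher on the PML4 array, and S100P was nearly 8-fold lower. S100A4, which binds nonmuscle myosin and is known for its part in cell motility, was at 1969.1 on the PML4 array and 370.0 on the pMSCV array. That is a 5.32-fold higher signal, a log2 difference of 2.41. S100A4 has only 1 probe set, 203186_s_at, whose ending marks probes that can match several transcripts, so it is missing when such probe sets are left out. S100A10, also called p11, is the member that does not respond to calcium and that pairs with annexin A2 at membranes. Its probe set 200872_at was at 477.4 on the PML4 array and 90.4 on the pMSCV array, a 5.28-fold higher signal. The pMSCV value lies just above the floor. When the floor was set at the 75th percentile of signals, the log2 difference of S100A10 was 0.04 instead of 2.40. The other probe set of S100A10, 238909_at, did not reach the floor, at 3.8 with PML4 and 5.4 with pMSCV.

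S100P, a member that binds ezrin and the scaffold IQGAP1, was at 100.5 on the PML4 array and 802.3 on the pMSCV array in its only probe set, 204351_at. The signal was 7.98-fold lower with PML4, a log2 difference of -3.00. Among the 11051 genes above the floor on both arrays S100P held rank 1 of the downward differences, while S100A4 held rank 4 and S100A10 rank 5 of the upward ones. Here too the lower value stands close to the floor. The 75th percentile as the floor gave S100P a log2 difference of -0.79, short of a call. Thus 2 members were called higher and 1 lower, where 1.23% of all measured genes were called higher (154 genes) and 3.21% lower (402 genes). Because the members were picked with these values known, nothing is read from that contrast. The split of calls over all genes moved with scaling. It was 198 higher (1.59%) and 282 lower (2.27%) after quantile normalization, and 217 (1.73%) and 252 (2.01%) after loess centring. The 3 called members were called under both.

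**Figure D1:**
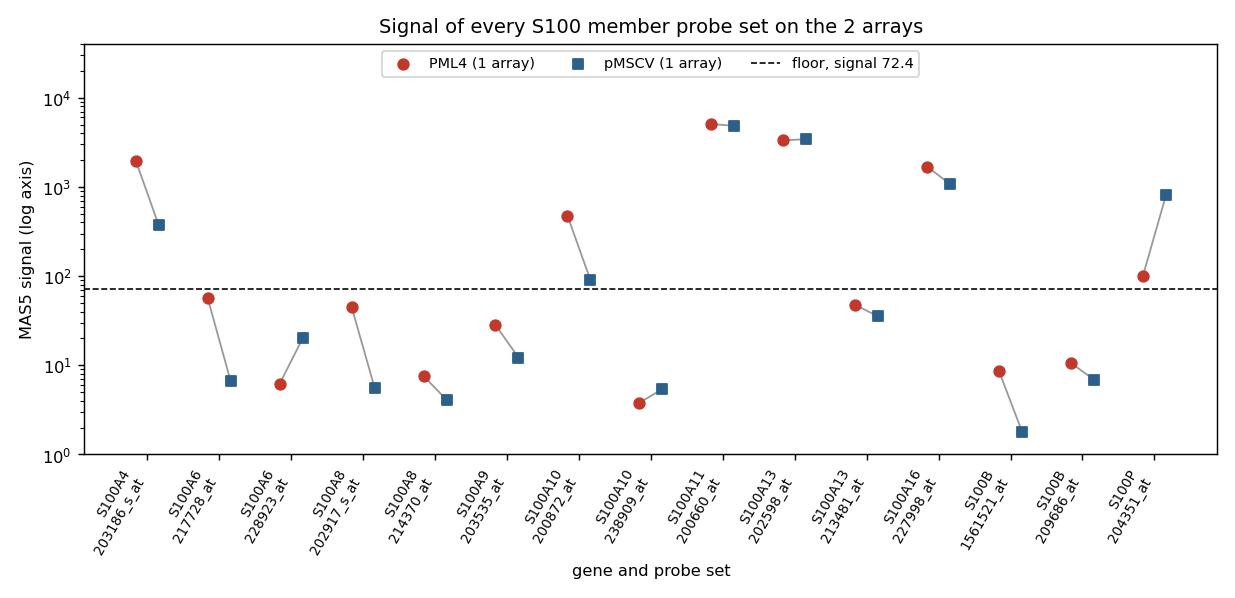
MAS5 signal on a log axis for each of the 15 probe sets of the 10 S100 genes, with PML4 as circles and pMSCV as squares, 1 array each, and the floor of 72.4 as a dashed line. S100A4 and S100A10 stand higher with PML4, S100P stands lower at 100.5 against 802.3, and 9 probe sets lie under the line on both arrays.

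The other 3 measured members were not called. S100A16, a widely expressed member, was at 1688.6 on the PML4 array and 1073.7 on the pMSCV array, a 1.57-fold higher signal. It held rank 488 of the upward differences among the 11051 genes above the floor on both arrays. Of all measured genes, 5.7% were at least 1.5-fold higher. S100A11, a partner of annexin A1 in membrane and epidermal biology, was at 5071.8 with PML4 and 4831.4 with pMSCV, a log2 difference of 0.07. S100A13, which takes part in the release of FGF1 from cells, was at 3333.9 with PML4 and 3417.5 with pMSCV, a log2 difference of -0.04 that was 0.01 after centring on the median gene. S100A11 and S100A13 thus differed by less than the usual gap between probe sets of a gene. The second probe set of S100A13, 213481_at, was under the floor at 47.5 with PML4 and 35.3 with pMSCV. All 6 measured members were above the floor on both arrays, and their median difference was 0.36 on the log2 scale, where the median of all measured genes was -0.05. The members were picked with these values known, so nothing is read from their median.

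**Figure D2:**
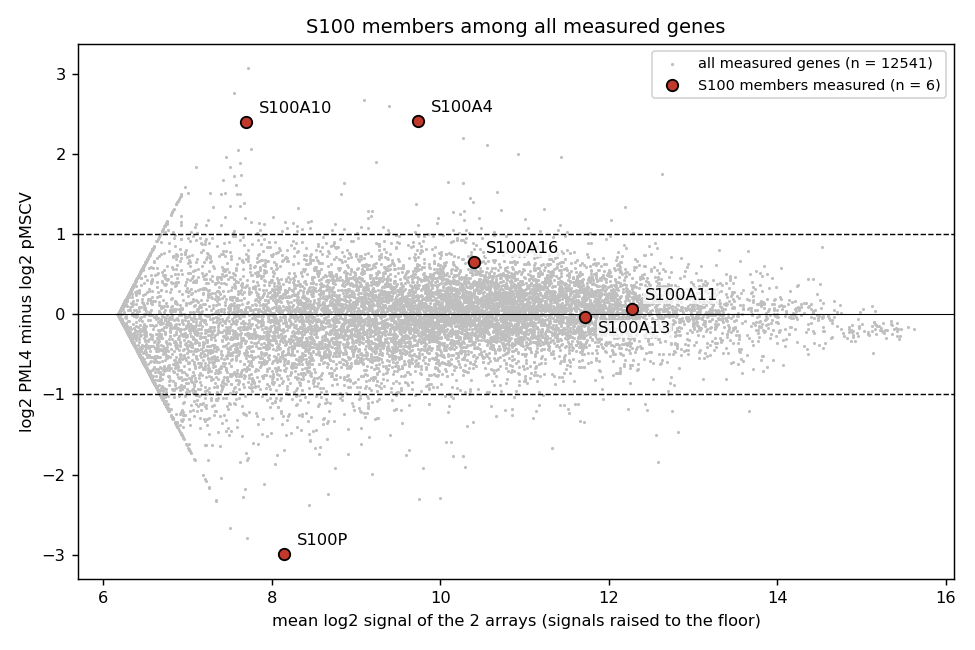
Difference, log2 PML4 minus log2 pMSCV, against the mean log2 signal of the arrays for 12541 measured genes in grey and the 6 measured S100 members in red, with dashed lines at 2-fold. S100A4 and S100A10 lie at 2.41 and 2.40, S100P lies at -3.00 at the lower edge of all genes, and S100A11 and S100A13 lie near 0.

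The remaining 4 members, S100A6, S100A8, S100A9 and S100B, were under the floor on both arrays in all of their probe sets, so no fold is given. S100A6, or calcyclin, was at 56.6 with PML4 and 6.6 with pMSCV in 217728_at, and at 6.2 with PML4 and 20.0 with pMSCV in 228923_at. Values under the floor have no order, and the probe sets of S100A6 lean opposite ways there. S100A8 was at 45.2 with PML4 and 5.6 with pMSCV in 202917_s_at, and at 7.6 with PML4 and 4.1 with pMSCV in 214370_at. S100A9, which pairs with S100A8 in calprotectin, was at 28.3 with PML4 and 12.2 with pMSCV. S100B was at 10.6 with PML4 and 6.9 with pMSCV in 209686_at, and at 8.6 with PML4 and 1.8 with pMSCV in 1561521_at. When the 25th percentile, a signal of 17.2, served as the floor, S100A6 had a log2 difference of 1.72 and S100A8 one of 1.39, both with the pMSCV value at that floor. At that floor 3.79% of all measured genes were called higher and 11.4% lower.

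The other 10 genes of the family were mostly under the floor. S100A1, a member of heart and muscle, was at 163.3 with PML4 and 277.1 with pMSCV, a 1.70-fold lower signal that is not a call. S100A14 was at 46.9 with PML4 and, barely above the floor, at 73.7 with pMSCV. The remaining 8, which are S100A2, S100A3, S100A5, S100A7, S100A7A, S100A12, S100G and S100Z, were under the floor on both arrays, between 1.6 and 69.4 with PML4 and between 5.1 and 36.3 with pMSCV. S100A7 and S100A7A are close copies, and their probe sets may read both.

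Along chromosome 1 the called members stood apart from each other. In the order of RefSeq genes, S100A10 is followed directly by S100A11, and after 47 other protein-coding genes come the other 14 family genes of this chromosome in an unbroken row. S100A4 lies in that row between S100A5, at 11.5 with PML4 and 5.1 with pMSCV, and S100A3, at 69.4 with PML4 and 30.2 with pMSCV, all under the floor. Of the 5 protein-coding genes on each side of S100A4, only S100A16, S100A14 and S100A13 were measured. S100A10 has THEM4, a thioesterase gene, on its other side, at 1612.4 with PML4 and 1513.5 with pMSCV. S100P lies on chromosome 4 and S100B on chromosome 21. Of the 10 nearest protein-coding genes around S100P 9 were measured, with log2 differences from -1.08 to 0.36. The lowest of these is a bound for WFS1, an endoplasmic reticulum membrane protein, at 56.0 with PML4 and 153.1 with pMSCV. WFS1 was thus called lower, the only call of these neighbours, where 3.21% of all measured genes were called lower. Nothing is read from 1 such call. The highest is a bound for CFAP184, at 93.0 with PML4 and, under the floor, 46.7 with pMSCV. The direct neighbours MRFAP1L2 and MRFAP1L1 were at 0.06 and 0.26.

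**Figure D3:**
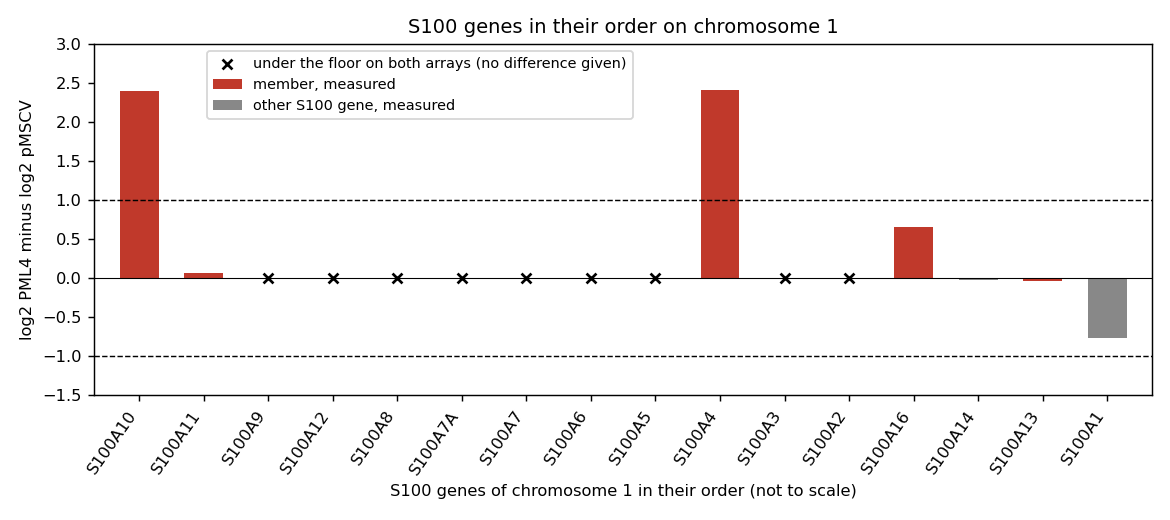
Difference, log2 PML4 minus log2 pMSCV, of the 16 S100 genes of chromosome 1 in their order, with members in red, other S100 genes in grey, crosses for genes under the floor on both arrays and dashed lines at 2-fold. S100A10 and S100A4 stand at 2.40 and 2.41, and the genes directly beside them are at 0.07 or under the floor.

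Genes whose signals on the 2 arrays were nearest to those of the called members were found by distance in the plane of the log2 signals. Over 2 arrays this likeness joins a level and a difference and holds no more than that. Nearest to S100A4 were SELPLG, the P-selectin ligand of leukocytes, at a distance of 0.51, PTPN7, a tyrosine phosphatase of blood cells, at 0.73, and RHOB, a small GTPase, at 0.73. SELPLG was at 1654.1 with PML4 and 271.8 with pMSCV, and both of its measured probe sets were higher. Nearest to S100A10 were CNRIP1 at 0.25, RAB37, a vesicle GTPase, at 0.28 and HPGD, a prostaglandin dehydrogenase, at 0.37. HPGD was at 379.6 with PML4 and 102.1 with pMSCV, higher in 4 of 4 measured probe sets. Nearest to S100P were CHAC1, a glutathione-degrading enzyme, at 0.60, PAPPA, a protease of insulin-like growth factor binding proteins, at 0.64 and ALDH1L2, a mitochondrial folate enzyme, at 0.71. PAPPA was at 79.5 with PML4 and 548.9 with pMSCV, lower in 6 of 6 measured probe sets.

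Among 21 measured receptors and binding partners of S100 proteins, AHNAK was the only call, and it was higher. With 1.23% of all measured genes called higher and 3.21% lower, nothing is read from a count of that size. AHNAK is a giant scaffold protein that binds the complex of S100A10 and annexin A2. It was at 1817.4 with PML4 and 876.2 with pMSCV, a 2.07-fold higher signal. A second measured probe set, 220016_at, was at 95.0 with PML4 and 5.0 with pMSCV, a lower bound of 0.39 on the log2 scale because the pMSCV value is under the floor. The other 3 probe sets of AHNAK were under the floor. ANXA2, the annexin of that complex, was at 7907.4 with PML4 and 6684.9 with pMSCV, and its 3 measured probe sets had log2 differences between 0.20 and 0.24.

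No partner of the other members was called. CACYBP, which binds S100A6, was at 10203.1 with PML4 and 9858.4 with pMSCV, and ANXA1, the partner of S100A11, was at 13045.7 with PML4 and 9913.1 with pMSCV. The other measured probe set of ANXA1, 233011_at, went the other way, at 305.7 with PML4 and 421.3 with pMSCV. MYH9, the nonmuscle myosin bound by S100A4, was at 451.7 with PML4 and 532.5 with pMSCV. Of the proteins bound by S100P, EZR (ezrin) was at 3458.0 with PML4 and 3180.7 with pMSCV, and IQGAP1 was at 4983.2 with PML4 and 4667.4 with pMSCV. S100PBP, named for binding S100P, was at 2438.9 with PML4 and 2589.2 with pMSCV. The log2 differences of these 3 partners of S100P lay between -0.09 and 0.12. The capping protein gene CAPZA1 was at 16384.9 with PML4 and 18617.7 with pMSCV. Signals were higher for 10 genes of the list and lower for 11, and the list's median was -0.09.

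Of the receptors for released S100 proteins, AGER was at 207.2 with PML4 and 246.8 with pMSCV, and its other probe set was also lower, at 105.1 with PML4 and 138.9 with pMSCV. BSG, a receptor of S100A9, was at 1592.3 with PML4 and 1716.0 with pMSCV. TLR4 was under the floor in all 4 of its probe sets, at 4.6 or less with PML4 and 13.5 or less with pMSCV. The partners CD33 and CD68 were not analysed here, because no probe set is annotated to either of them alone in the table used.

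The wider groups of calcium-binding proteins held 1 call each, where 1.23% of all measured genes were called higher and 3.21% lower, and nothing is read from those counts. Of 9 measured annexins, 4 of them also among the partners, ANXA3 was the only call, at 837.6 with PML4 and 2133.4 with pMSCV, a 2.55-fold lower signal. The annexin median was -0.02, and ANXA7 was at 6081.9 with PML4 and 6185.5 with pMSCV. Of 32 other EF-hand genes, EFHD1, a mitochondrial calcium-binding protein, was the only call, at 68.9 with PML4 and 222.6 with pMSCV, at least 3.07-fold lower because the PML4 value is under the floor. CALB1, calbindin, came just short of a call at 331.8 with PML4 and 166.6 with pMSCV. Examples from this list were CHP1, a calcineurin B homologous protein, at 8507.1 with PML4 and 9251.7 with pMSCV, CAPN2, a calpain, at 5098.2 with PML4 and 7749.1 with pMSCV, and CETN3, a centrin, at 5425.9 with PML4 and 5870.3 with pMSCV. Signals were higher for 14 of these genes and lower for 18, with a median of -0.12.

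Transcription factors known to act on S100 genes in various cells held no call among 12 measured, a number too small to set apart from the 1.23% called higher and 3.21% called lower over all genes. CEBPB, a factor of myeloid differentiation, was at 5012.6 with PML4 and 9106.5 with pMSCV, a 1.82-fold lower signal. MYB was at 21722.5 with PML4 and 17016.4 with pMSCV, and STAT3 was at 6239.9 with PML4 and 8193.2 with pMSCV. Of the 4 measured probe sets of STAT3, 2 were higher and 2 lower. SPI1, CEBPA and CEBPE were under the floor on both arrays. The list's median was -0.08, with 6 genes higher and 6 lower.

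**Figure D4:**
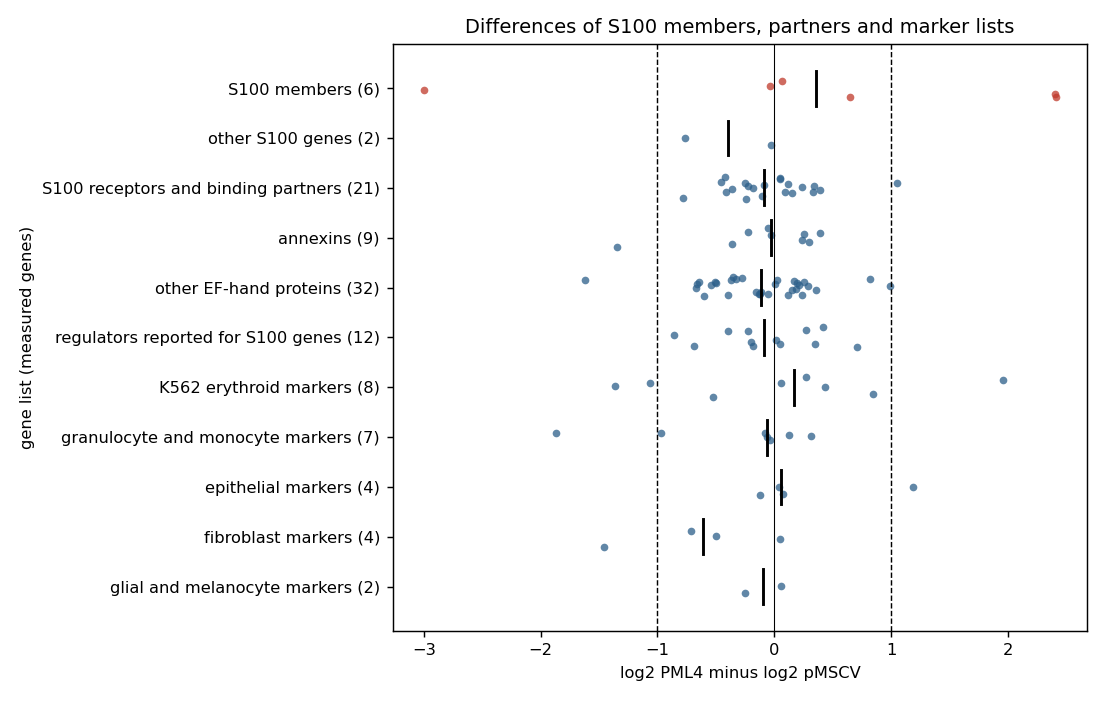
Difference, log2 PML4 minus log2 pMSCV, of each measured gene in 11 lists, with the S100 members in red, the number of measured genes in brackets, a black bar at each list's median and dashed lines at 2-fold. S100A4 and S100A10 lie furthest right and S100P furthest left, while AHNAK at 1.05 is the only partner past a line.

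Markers of cell types known for S100 expression were checked on the same arrays. Over all measured genes 1.23% were called higher and 3.21% lower, and nothing is read from a call or none in lists this short. The sums given for marker lists add signals as deposited, also those under the floor. Because each probe set has its own response, they give no share of transcripts. Of 17 granulocyte and monocyte markers 7 were measured, and MPO, ELANE, PRTN3, CD14 and FCN1 were among the 10 under the floor on both arrays. The summed signal of the 7 was 4295.9 with PML4 and 4774.6 with pMSCV, of which LYZ, lysozyme, had 3134.6 with PML4 and 3206.4 with pMSCV, and ITGAM 742.6 with PML4 and 678.5 with pMSCV. CSF3R, the G-CSF receptor, was the only call, 3.64-fold lower at 137.3 with PML4 and 500.3 with pMSCV. Of 8 epithelial markers 4 were measured, with a sum of 19246.2 with PML4 and 17838.7 with pMSCV. KRT18 was at 7878.2 with PML4 and 8594.7 with pMSCV, EPCAM at 6203.1 with PML4 and 5870.4 with pMSCV, and the keratin KRT19, the only call, was 2.27-fold higher at 3098.8 with PML4 and 1362.8 with pMSCV. CDH1, KRT5, KRT14 and CLDN4 were under the floor.

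Of 10 fibroblast markers 4 were measured, with a sum of 3623.6 with PML4 and 3892.5 with pMSCV, most of it FN1 at 3177.6 with PML4 and 3076.0 with pMSCV. SPARC was the only call, 2.75-fold lower at 110.3 with PML4 and 303.6 with pMSCV, COL1A1 was at 278.6 with PML4 and 394.2 with pMSCV, and COL1A2, COL3A1, LUM and PDGFRB were under the floor. Of the glial and melanocyte markers 2 of 7 with a probe set were measured, TYR at 13.2 with PML4 and 86.1 with pMSCV and PMEL at 75.5 with PML4 and 44.3 with pMSCV. The part of these markers in the S100 differences was not tested.

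The erythroid identity of K562 was visible on both arrays. All 8 erythroid markers with a probe set were measured, with a sum of 70010.3 with PML4 and 46239.0 with pMSCV. TFRC, the transferrin receptor, was at 31653.7 with PML4 and 17625.2 with pMSCV, the embryonic globin HBE1 at 24540.1 with PML4 and 18103.9 with pMSCV, and KLF1 at 3196.4 with PML4 and 3062.8 with pMSCV. HBZ, zeta-globin, was 3.90-fold higher, while ALAS2, of heme synthesis, was 2.57-fold lower. EPOR, the erythropoietin receptor, was 2.08-fold lower in 396_f_at, but its 4 measured probe sets disagreed, 209962_at being 1.75-fold higher, and their mean log2 difference was -0.21. PML, the transduced gene, was read by 10 probe sets, of which 211589_at reached the floor with neither PML4 nor pMSCV. The others differed in both directions, with log2 differences from -2.57 to 2.83. The probe set of highest mean log2 signal, 211013_x_at, was 6.41-fold higher, at 1386.8 with PML4 and 216.3 with pMSCV. Probe set 210362_x_at was 7.12-fold higher with PML4, while 206503_x_at was 5.92-fold lower. The array thus gives no plain check of the transgene. The 3' to 5' ratio of GAPDH, a measure of RNA integrity, was 1.53 with PML4 and 1.55 with pMSCV, and that of ACTB was 2.80 with PML4 and 2.94 with pMSCV. The floor was passed by 48.1% of human probe sets with PML4 and 51.9% with pMSCV.

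The settings of the processing moved the called members mainly through the floor. S100A4 stayed between 2.08 and 2.46 on the log2 scale under the 7 settings that could read it. S100A10 ran from 0.04 to 2.60 and S100P from -3.00 to -0.79 over 8 settings, and each was past 2-fold in 7 of them. Among these settings, the 25th percentile floor, averaging probe sets and dropping _x_at and _s_at ones could not change either value. S100A16 ran from 0.62 to 0.70, S100A11 from 0.02 to 0.12 and S100A13 from -0.09 to 0.01.

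**Figure D5:**
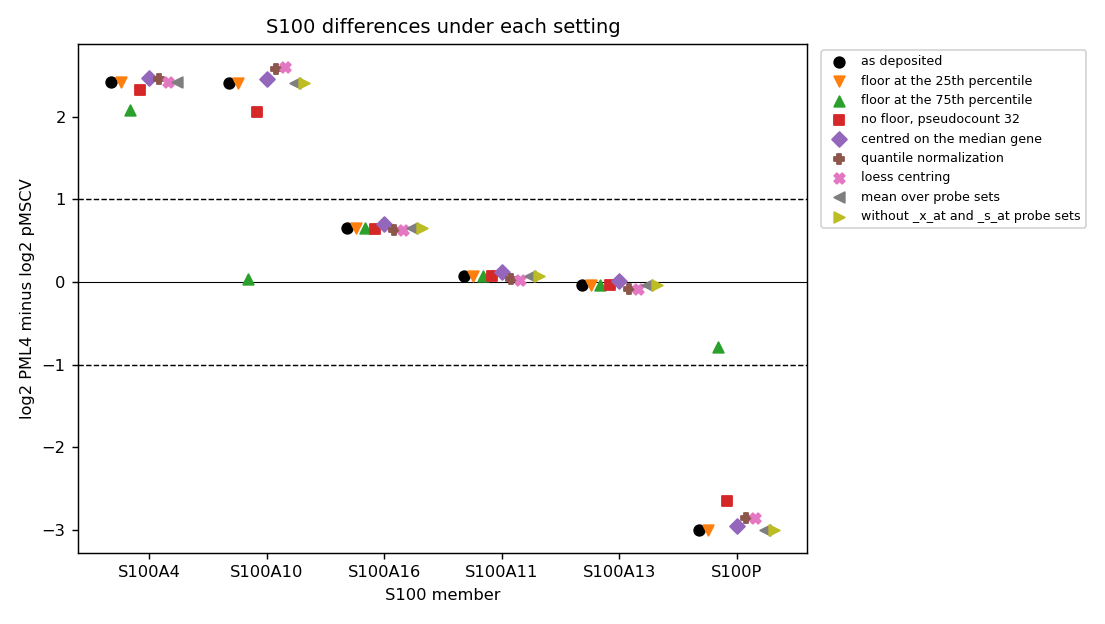
Difference, log2 PML4 minus log2 pMSCV, of the 6 measured S100 members as deposited (black) and under 8 other settings (colours and shapes), with dashed lines at 2-fold. Values of S100A10 and S100P for the higher floor, 0.04 and -0.79, stand apart from their other settings, and S100A4 has no value without _x_at and _s_at probe sets.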

How the data were processed

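Total RNA of K562 cells, 6 µg a sample per the labels, was labelled with biotin and hybridised to 1 Affymetrix array for PML4 and 1 for pMSCV. Each deposited intensity is a linear MAS5 signal of 1 probe set. The submitters' processing notes name MAS5 with no version or settings. The authors' scaling brings the arrays to nearly the same mean, 500.1 for PML4 and 500.0 for pMSCV when 2% of probe sets is trimmed at each end. Having 1 array a group is what limits precision.

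Everything else was computed for this text with Python 3.11.15, pandas 2.3.3 and statsmodels 0.14.6. Probe sets were named from GEO's annotation of the array where it gives 1 gene (41091 human probe sets; 1801 have several genes and 11721 are unnamed), with symbols updated through Entrez identifiers. No further normalization was applied. A gene took its measured probe set of highest mean log2 signal, and signals under the floor of 72.4 were raised to it. Gene order and promoter windows came from RefSeq GRCh38.p14. The annotation of the array names no build, so the only coordinates given are those of the promoter windows. S100B had no promoter window.

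The members and the 11 gene lists (169 genes) were chosen with earlier results of these data known. Values are given for every S100 probe set that was measured or belongs to a member, for called list genes, for the 3 genes of highest mean log2 signal in each list, a rule for naming genes only, and for ANXA2, AHNAK, CACYBP, AGER and TLR4. BSG, CALB1, CFAP184, EZR, IQGAP1, MYH9, S100PBP, MRFAP1L1, MRFAP1L2, THEM4 and WFS1 were added after their values were seen. The folds of the named PML probe sets were likewise added after their values were seen. The code that makes the calls was checked on simulated arrays with known folds, which says nothing of the error between real arrays. Other settings tried were the 25th or 75th percentile as the floor, a pseudocount of 32 in its place, median centring, quantile normalization, loess (span 0.4), averaging a gene's probe sets, dropping _x_at and _s_at probe sets, and a call size of 1.5-fold or 3-fold.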

Additional observations from a re-analysis of the deposited data

How the results depend on the processing

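Of 47 member differences recomputed under other settings, 42 moved by less than the usual gap of 0.30 between probe sets of a gene, and no called difference changed sign. Many of the 42 could not have moved, so the tally is no measure of robustness. Each measured member has 1 measured probe set, so averaging probe sets or dropping _x_at and _s_at ones left every readable value as deposited. The 25th percentile floor lies under both signals of these 6 members and left their differences unchanged too. With the floor at the 25th percentile 4 members were called higher, S100A6 and S100A8 being added, and the median of the 9 measured members was 0.72. That median is the difference of S100A9 itself. The members added at that floor, S100A6, S100A8 and S100A9, passed it only on the PML4 array in the probe set used. They could thus only come out higher, and nothing is read from the added calls or the median. Over all 17590 genes measured at that floor, 667 were called higher (3.79%) and 2000 lower (11.4%). As deposited, 154 (1.23%) and 402 (3.21%) of 12541 genes were called. With the floor at the 75th percentile 1 member was called higher, S100A4, and 0 lower, and the members' median was 0.054. Over all 7951 genes measured at that floor, 50 were called higher (0.629%) and 63 lower (0.792%). That floor, a signal of 465, lies above the pMSCV value of S100A10 and the PML4 value of S100P. Without _x_at and _s_at probe sets 1 member was called higher, because S100A4 has no other probe set. Over the 9844 genes left, 1.37% were called higher and 3.34% lower. Calls at 1.5-fold added S100A16 and gave 715 higher (5.7%) and 1487 lower (11.9%) genes. Calls at 3-fold kept S100A4, S100A10 and S100P and gave 27 higher (0.215%) and 59 lower (0.47%) genes. Loess centring gave 252 lower genes (2.01%). Under the other settings listed, loess included, the same 3 members were called. Over all genes 1.04% to 1.73% were then called higher and 2.01% to 4.62% lower. No paired analysis was possible because each group is 1 array, and for the same reason no array could be left out.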
